A study of Mus musculus with 18 samples.

Results

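The genes described here are 38 mouse genes that mark monocytes and macrophages, chosen by symbol from 22792 genes counted in 18 tumors. All 38 had counts and passed the filter on low counts, which left 15282 genes for testing. They fall into 9 genes of myeloid lineage and identity, 5 Fc receptors and their adaptors, the 3 chains of complement C1q, 4 pattern recognition and scavenger receptors, 6 genes of resident-like macrophages, 4 genes of lipid-associated macrophages, 3 monocyte genes and chemokine receptors, and 4 other myeloid surface proteins.

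The tumors were grown from 4T1 cells, a mouse triple-negative mammary carcinoma line, of which 300000 were injected into the mammary fat pad of female Balb/c mice aged 8 weeks. Mice received vehicle (Vehicle, 5 tumors), the PI3K inhibitor CLR457 (PI3Ki, 4 tumors), the allosteric SHP2 inhibitor SHP099 (SHP2i, 4 tumors) or both compounds (Combo, 5 tumors) from day 7 to day 21, and tumors were taken on day 21. Every group therefore shared 1 cell line, 1 host strain with its own immune cells, and 1 collection day. Poly(A) RNA of whole tumors was sequenced, so the values mix carcinoma cells with the cells of the host. Replicates are tumors of different animals by the study's description of these groups.

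Monocytes leave the bone marrow, enter tissue along chemokine gradients read by receptors such as CCR2 and mature there into macrophages, which depend on signals through the receptor CSF1R. Macrophages take up dead cells, antibody-coated particles and modified lipids, make the complement recognition protein C1q, and secrete cytokines. In tumors they are often the most abundant leukocytes, and subsets are described by genes such as Mrc1 and Cd163 (resident-like) or Trem2, Gpnmb and Spp1 (lipid-associated). Several of these genes are also made elsewhere: Spp1, Gpnmb and Apoe by carcinoma or stromal cells, Lyve1 by lymphatic endothelium, and Itgam, Clec7a and Fcgr3 by neutrophils.

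The tables summed to between 21161111 and 26620104 counts per tumor. The 7 genes used to check the label, Csf1r, Adgre1, Cd68, Mpeg1, C1qa, Fcgr1 and Ly6c2, were all detected in Vehicle tumors, from a mean of 21.9 CPM for Ly6c2 to 551 CPM for C1qa (CPM, a gene's counts relative to the TMM-scaled library size). On the scale of CPM per kilobase of exon, which allows levels of different genes to be compared, Lyz2 (lysozyme, 1234), Spp1 (osteopontin, 1100), Apoe (apolipoprotein E, 847) and the C1q chains C1qa (530.2), C1qb (420) and C1qc (352) led the list in Vehicle, while Lyve1 (3.70), Vsig4 (0.868) and Marco (0.795) were the lowest. In whole tumors, fewer macrophages and less of an RNA per macrophage cannot be told apart.

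Some tumors stood apart in the markers of other cells, chiefly PI3Ki replicate 2, Combo replicates 3 and 4, and all PI3Ki tumors for muscle. The 8 leukocyte-wide genes (such as Ptprc, encoding CD45) were called lower for 7 of 8 in SHP2i and 8 of 8 in Combo, with summed levels of 1397 to 2208 CPM in Vehicle, 1390 to 2358 in PI3Ki, 533 to 918 in SHP2i and 223 to 1029 in Combo. Neutrophil genes summed to 2145 CPM in PI3Ki replicate 2 and to 165 to 273 in the other PI3Ki tumors, to 133 to 291 in Vehicle, 63.7 to 128 in SHP2i and 19.5 to 68.7 in Combo, with 8 of 12 tested lower in Combo. B and plasma cell genes summed to 638 and 285 CPM in Combo replicates 3 and 4 and to 10.02 to 48.5 in the other 3 Combo tumors. Skeletal muscle genes summed to 908 to 2175 CPM in PI3Ki and to 5.33 to 114 in the other groups, with 12 of 12 called higher in PI3Ki. Of all tested genes, 6.54% were called lower in SHP2i, 19.7% lower in Combo and 2.69% higher in PI3Ki.

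The region just upstream of 6 of these genes is shown because they carry the main patterns described below: C1qb, Fcgr1, Slamf9 and Mpeg1 were lower in SHP2i and in Combo than in Vehicle, while Cd163 and Gpnmb were the genes higher in Combo. PU.1, encoded by Spi1, is the ETS-family factor that directs macrophage development, and capitals mark matches to its core letters GAGGAA on either strand. Each sequence holds the 150 bases before the RefSeq transcript start on GRCm38.p6, read 5′ to 3′ on the strand of the gene. The windows of the lower genes lie at chr4:136886201-136886350, minus strand (C1qb), chr3:96293970-96294119, minus strand (Fcgr1), chr1:172475210-172475359, plus strand (Slamf9, inside a longer annotated Slamf9 model) and chr19:12460620-12460769, plus strand (Mpeg1). Those of the higher genes lie at chr6:124304501-124304650, plus strand (Cd163) and chr6:49036368-49036517, plus strand (Gpnmb).
C1qb: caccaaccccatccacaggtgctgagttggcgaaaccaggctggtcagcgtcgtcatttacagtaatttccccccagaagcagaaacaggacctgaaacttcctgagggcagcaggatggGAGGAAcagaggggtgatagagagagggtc
Fcgr1: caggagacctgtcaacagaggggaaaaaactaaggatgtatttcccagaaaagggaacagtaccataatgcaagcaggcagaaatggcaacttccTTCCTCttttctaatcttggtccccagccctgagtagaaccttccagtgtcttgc
Slamf9: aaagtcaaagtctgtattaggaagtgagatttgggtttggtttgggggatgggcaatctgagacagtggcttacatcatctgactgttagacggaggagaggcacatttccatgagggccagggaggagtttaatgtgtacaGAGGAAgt
Mpeg1: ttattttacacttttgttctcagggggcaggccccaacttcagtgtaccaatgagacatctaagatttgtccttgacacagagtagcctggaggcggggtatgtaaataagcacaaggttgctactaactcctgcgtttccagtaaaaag
Cd163: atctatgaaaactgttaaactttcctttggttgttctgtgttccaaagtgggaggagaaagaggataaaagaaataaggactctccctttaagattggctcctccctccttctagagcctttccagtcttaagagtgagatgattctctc
Gpnmb: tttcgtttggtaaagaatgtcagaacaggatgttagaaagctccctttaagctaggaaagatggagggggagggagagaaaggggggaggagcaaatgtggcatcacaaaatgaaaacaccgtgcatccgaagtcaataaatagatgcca
The C1qb match began 30 bases before the start (position -30), the Fcgr1 match at -55 and the Slamf9 match at -8.

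RefSeq gave a window from 250 bases before to 50 bases after the start for 28 of the 38 genes. GAGGAA occurred on either strand in 20 of the 28 windows (71.4%), against 31.2% of the 12029 tested genes with a window. The longer PU.1 letters AGGAAGT, which can overlap GAGGAA or occur without it, were in 11 (39.3%) against 10.9%. The C/EBP letters TTGCNNAA (4 windows, 14.3% against 10.6%), the MAF letters TGCTGAC (1 window, Fcgr3, 3.57% against 4.68%) and the gamma-activated letters TTCNNNGAA (1 window, Fcgr1, 3.57% against 8.23%) were found in fewer of the windows. The 8 windows without GAGGAA were those of Mpeg1, Fcer1g, Ms4a6c, Lyz2 and Cx3cr1, which fell in Combo, of Cd163 and Gpnmb, which rose, and of Folr2, which was not called. Of these windows, those of Ms4a6c, Lyz2 and Folr2 held AGGAAGT. These are matches of letters, not binding sites.

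Most of the macrophage and monocyte genes were lower in tumors treated with the SHP2 inhibitor or with both compounds, and few differed with the PI3K inhibitor alone. Against Vehicle, 22 of 38 genes were lower and 1 was higher in SHP2i, where 6.54% of all tested genes were lower and 5.05% higher (edgeR quasi-likelihood test, adjusted p under 0.05). In Combo, 33 of 38 were lower and 2 were higher, where 19.7% and 23.9% of all tested genes were called. With the PI3K inhibitor alone 2 of 38 were lower and 0 were higher, where the shares of all tested genes were 2.42% and 2.69% (DESeq2 and limma voom each called 1 higher gene, Cd163). The median log2 fold change over the 38 genes was -0.035 in PI3Ki, -1.21 in SHP2i and -2.20 in Combo, against 0.012, 0.0193 and 0.0225 over all tested genes. These comparisons share the 5 Vehicle tumors.

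Most of these changes were over 1 on the log2 scale. With that limit as well, 1 of the 38 genes was lower and 0 were higher in PI3Ki (0.321% and 1.43% of all tested genes). In SHP2i the counts were 19 and 0 (3.1% and 0.641%), and in Combo 28 and 2 (6.86% and 3.99%). At an unadjusted p under 0.05, 5 of the 38 genes differed in PI3Ki, 28 in SHP2i and 35 in Combo, where 19.5%, 29.3% and 51.1% of all tested genes did.

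In terms of the tumors themselves, every Combo tumor lay below every Vehicle tumor for 30 genes and above for 2, where 13.4% and 15.5% of all tested genes were separated in this way. For SHP2i the numbers were 25 below and 1 above (10.5% and 8.6% of all tested genes), and for PI3Ki 2 below and 4 above (5.36% and 5.16%). The 3 genes that did not pass the test in Combo were Maf (a transcription factor of mature macrophages, log2 fold change -0.31, adjusted p = 0.398), Mrc1 (0.88, adjusted p = 0.108) and Folr2 (-0.17, adjusted p = 0.798). Group means followed the order Vehicle, PI3Ki, SHP2i, Combo from high to low for 16 genes, and PI3Ki, Vehicle, SHP2i, Combo for 12.

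**Figure D1:**
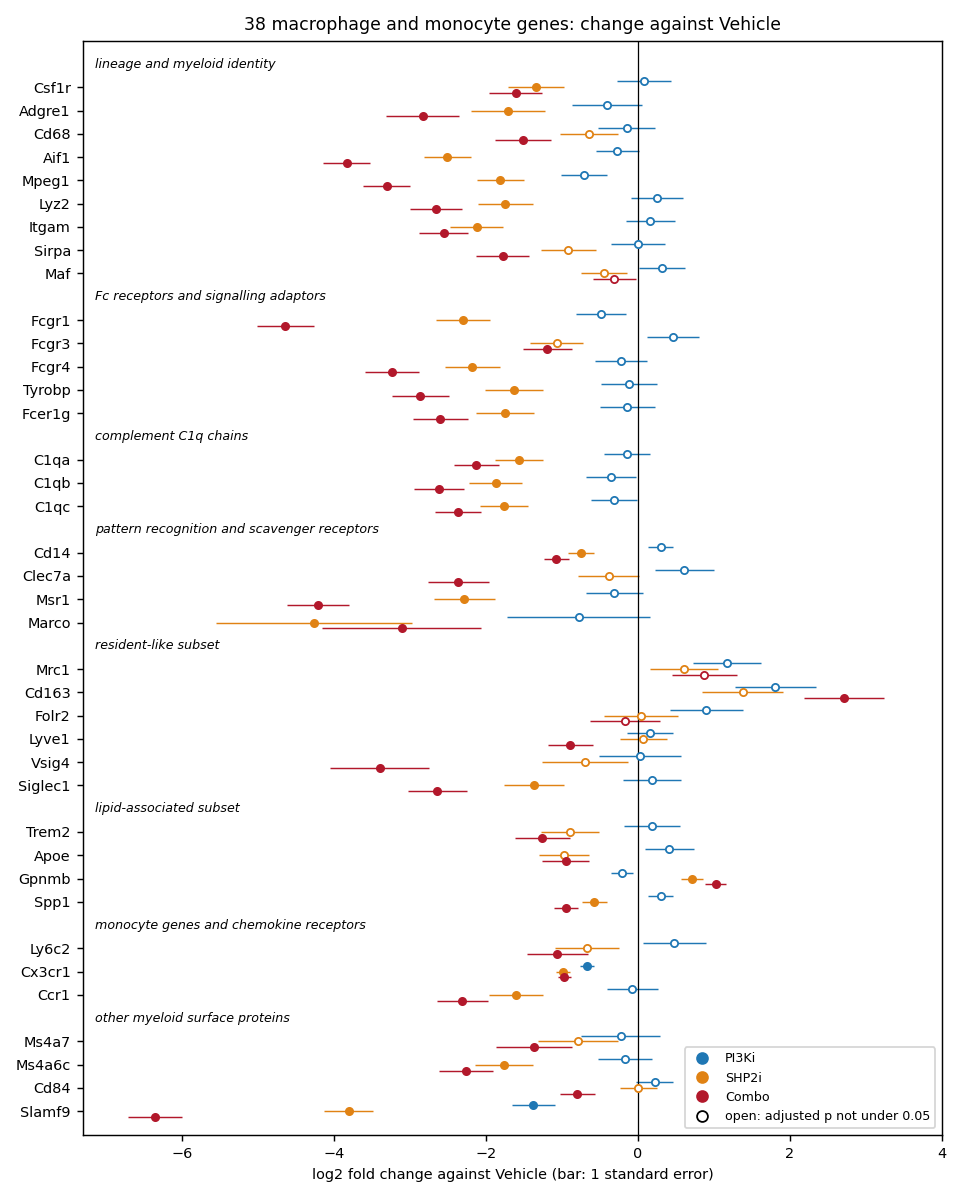
The log2 fold change of each of the 38 genes against Vehicle (horizontal axis) is drawn for PI3Ki, SHP2i and Combo with bars of 1 standard error, by role. Filled points have an adjusted p under 0.05; filled Combo points are left of 0 for 33 genes and right of 0 for Cd163 and Gpnmb, and most PI3Ki points are open and near 0.

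Of the 9 lineage and identity genes, 8 fell in Combo and 6 fell in SHP2i, and none passed the test in PI3Ki. Beside this role and those below, 19.7% of all tested genes were lower in Combo, 6.54% in SHP2i and 2.42% in PI3Ki. Aif1 (IBA1, an actin-binding protein of macrophages), Mpeg1 (perforin-2, a pore-forming defence protein) and Itgam (CD11b, an integrin of many myeloid cells) had the smallest p in Combo. Aif1 was at 52.2, 78.9, 74.9, 67.2 and 70.8 CPM in Vehicle, 52.03, 87.3, 44.3 and 44.6 in PI3Ki, 13.7, 8.99, 12.7 and 12.98 in SHP2i, and 6.92, 4.92, 7.098, 3.46 and 1.64 in Combo. All SHP2i and Combo values lay below the lowest Vehicle value, and those of Combo below those of SHP2i. It fell 5.69-fold in SHP2i (log2 fold change -2.51, SE 0.308, adjusted p = 7.63e-05). The Combo fall was 14.3-fold (log2 fold change -3.84, SE 0.305, adjusted p = 1.59e-07).

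Mpeg1 was at 294, 438, 529, 656 and 705 CPM in Vehicle, 292, 412, 369.8 and 206 in PI3Ki, 116, 103, 192 and 187 in SHP2i, and 57.9, 73.6, 61.2, 47.3 and 24.9 in Combo. The SHP2i and Combo tumors were again separate from Vehicle and from each other. The fall was 3.51-fold in SHP2i (log2 fold change -1.81, SE 0.315, adjusted p = 0.00147). Combo gave a 9.9-fold fall (log2 fold change -3.31, SE 0.309, adjusted p = 6.93e-07). Itgam, which neutrophils share, was at 131, 165, 199.9, 238 and 199.9 CPM in Vehicle, 192, 301, 198 and 144 in PI3Ki, 36.8, 29.3, 54.6 and 50.98 in SHP2i, and 24.5, 53.2, 46.8, 20.6 and 13.6 in Combo. Here Combo overlapped SHP2i, and the fall was 4.35-fold in SHP2i (log2 fold change -2.12, SE 0.348, adjusted p = 0.000973). In Combo it fell 5.88-fold (log2 fold change -2.56, SE 0.326, adjusted p = 1.47e-05).

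The receptor gene Csf1r ranged over 231 to 354 CPM in Vehicle, 242 to 445 in PI3Ki, 77 to 185 in SHP2i and 46.6 to 176 in Combo. It fell in SHP2i (log2 fold change -1.34, SE 0.372, adjusted p = 0.0267) and in Combo (log2 fold change -1.61, SE 0.348, adjusted p = 0.0014). The F4/80 gene Adgre1 (-1.71 and -2.84) and Lyz2 (-1.75 and -2.65) also fell in both groups on the log2 scale. Cd68, a lysosomal glycoprotein, and Sirpa, the receptor for the CD47 signal against engulfment, fell in Combo, with log2 fold changes of -1.51 and -1.78 (adjusted p = 0.00331 and 0.000614). In SHP2i their values were -0.64 (adjusted p = 0.281) and -0.91 (adjusted p = 0.107), and the differences between Combo and SHP2i did not pass the test either (adjusted p = 0.108 and 0.0891). The SHP2i calls of Csf1r and Adgre1 were lost in several fits that left out 1 tumor, with little change in the log2 fold change. Csf1r missed the threshold without Vehicle replicate 2 or 3 or SHP2i replicate 2, 3 or 5 (between -1.41 and -1.19). Adgre1 missed it without Vehicle replicate 2, 3, 4 or 5 or SHP2i replicate 2, 3 or 5 (between -1.77 and -1.54). For both genes every SHP2i tumor was below every Vehicle tumor.

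All 5 Fc receptors and adaptors fell in Combo and 4 of them fell in SHP2i, with no call in PI3Ki. Fcgr1 encodes the high-affinity IgG receptor CD64, and Tyrobp (DAP12) and Fcer1g are adaptors that pass receptor signals to the kinase SYK. Fcgr1 was at 68.8, 100.4, 80.2, 104 and 95.04 CPM in Vehicle, 50.3, 111, 52.04 and 41.5 in PI3Ki, 16.4, 9.12, 24.8 and 22.3 in SHP2i, and 4.03, 5.05, 5.06, 2.42 and 1.37 in Combo. The SHP2i values did not reach the lowest Vehicle value, and the highest Combo value was below the lowest in SHP2i. It fell 4.93-fold in SHP2i (log2 fold change -2.30, SE 0.354, adjusted p = 0.000622). The Combo fall was 24.9-fold (log2 fold change -4.64, SE 0.372, adjusted p = 1.7e-07), the largest Combo change among the 38 genes after Slamf9.

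Fcgr4, an activating receptor for IgG, was at 57.6, 87.9, 96.9, 145 and 126 CPM in Vehicle, 82.1, 134, 70.1 and 66.2 in PI3Ki, 17.5, 12.2, 25.7 and 35.3 in SHP2i, and 14.2, 14.8, 13.2, 7.04 and 5.18 in Combo. Tyrobp was at 84.2, 126, 117, 109.5 and 113 CPM in Vehicle, 83.9, 174, 81.95 and 67.2 in PI3Ki, 26.3, 23.5, 50.1 and 41.8 in SHP2i, and 12.9, 22.2, 26.1, 8.98 and 5.09 in Combo. In both genes SHP2i and Combo tumors were below all Vehicle tumors and overlapped each other. Fcgr4 fell 4.53-fold in SHP2i (log2 fold change -2.18, SE 0.365, adjusted p = 0.00113). Combo gave a 9.43-fold fall (log2 fold change -3.24, SE 0.354, adjusted p = 3.4e-06). Tyrobp fell 3.1-fold in SHP2i (log2 fold change -1.63, SE 0.385, adjusted p = 0.0116). In Combo it fell 7.3-fold (log2 fold change -2.87, SE 0.376, adjusted p = 1.88e-05). Fcer1g fell as well, with log2 fold changes of -1.75 in SHP2i and -2.603 in Combo. Fcgr3, the low-affinity receptor that natural killer cells and neutrophils also carry, had a log2 fold change of -1.07 in SHP2i (adjusted p = 0.0553) and fell in Combo (log2 fold change -1.19, SE 0.326, adjusted p = 0.00724). The Fc receptor genes are near-identical in parts, and how reads that fit several genes were counted was not given.

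The 3 chains of C1q, which are encoded side by side on chromosome 4 and assemble into 1 protein, fell together. C1qa was at 464, 625, 589, 557 and 522 CPM in Vehicle, 418, 764, 426 and 388 in PI3Ki, 145, 150.2, 224 and 228 in SHP2i, and 137, 165, 201, 71.8 and 55.6 in Combo. C1qb was at 346, 497, 469.7, 495 and 475 CPM in Vehicle, 313, 540.4, 311 and 268 in PI3Ki, 87.99, 92.5, 162 and 156 in SHP2i, and 66.2, 114, 117, 39.99 and 33.1 in Combo. C1qc was at 346, 446, 438, 458 and 431 CPM in Vehicle, 302, 479.5, 312 and 272 in PI3Ki, 97.97, 100.4, 153 and 146 in SHP2i, and 85.4, 119, 125, 46.6 and 33.3 in Combo. For each chain all SHP2i and Combo tumors lay below all Vehicle tumors, Combo overlapped SHP2i, and PI3Ki overlapped Vehicle. In SHP2i the falls were 2.95-fold for C1qa (adjusted p = 0.00455), 3.66-fold for C1qb (adjusted p = 0.00238) and 3.41-fold for C1qc (adjusted p = 0.00191). Combo gave 4.38-fold (adjusted p = 3.41e-05), 6.17-fold (adjusted p = 1.26e-05) and 5.17-fold (adjusted p = 1.31e-05) in the same order. Between Combo and SHP2i the log2 differences of -0.57, -0.75 and -0.602 did not pass the test (adjusted p = 0.188, 0.109 and 0.16).

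Pattern recognition and scavenger receptors fell in 3 of 4 cases in SHP2i and in 4 of 4 in Combo. Msr1, the scavenger receptor A that takes up modified lipoproteins, was at 197, 257, 239, 261 and 256 CPM in Vehicle, 172, 271, 197 and 140.3 in PI3Ki, 41.6, 36.8, 63.98 and 56 in SHP2i, and 20.6, 18.6, 16.9, 6.78 and 2.303 in Combo. PI3Ki overlapped Vehicle, SHP2i lay below both and Combo below SHP2i, and the fall was 4.88-fold in SHP2i (log2 fold change -2.29, SE 0.404, adjusted p = 0.00168). The Combo fall was 18.5-fold (log2 fold change -4.21, SE 0.408, adjusted p = 9.9e-07). Cd14, the co-receptor for bacterial lipopolysaccharide, was at 98.7, 109, 116, 91.5 and 85.8 CPM in Vehicle, 124, 174, 109 and 87.3 in PI3Ki, 46.7, 52.7, 66.8 and 72.6 in SHP2i, and 47.7, 39.6, 47.6, 47.4 and 55.97 in Combo. Its fall was smaller, 1.68-fold in SHP2i (log2 fold change -0.75, SE 0.172, adjusted p = 0.00948). Combo gave a 2.11-fold fall (log2 fold change -1.07, SE 0.161, adjusted p = 6.51e-05), and Combo tumors spread less for it (SD 0.177 on the log2 scale) than for Csf1r (0.89).

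Clec7a encodes dectin-1, a receptor for fungal glucans that signals through SYK. Its level was 56.1, 72.02, 81.2, 66.6 and 80.3 CPM in Vehicle, 99.9, 136, 102 and 96.9 in PI3Ki, 28.97, 33.8, 74.2 and 81.02 in SHP2i, and 16.2, 16.5, 26.3, 6.26 and 3.85 in Combo. All PI3Ki tumors were above all Vehicle tumors, the SHP2i tumors were spread over the Vehicle range and below it, and all Combo tumors were below every other group. The log2 fold changes were 0.61 in PI3Ki (adjusted p = 0.433) and -0.39 in SHP2i (adjusted p = 0.544), neither past the threshold, and -2.36 in Combo (SE 0.397, adjusted p = 0.000173). With only the groups compared the PI3Ki value passed (0.608, adjusted p = 0.0252). The interaction, which is the Combo effect less the sum of both single effects, was -2.59 (SE 0.563, adjusted p = 0.0239), 1 of 2 calls among the 38 genes. The lower share of all tested genes called in the interaction was 1.61% and the higher share 0.864%. Over 1 on the log2 scale, 1 of the 38 was lower and 0 higher (1.36% and 0.308%), and 15 of the 38 had an unadjusted p under 0.05 (18.6%). Without PI3Ki replicate 2, SHP2i replicate 4 or SHP2i replicate 5 the Clec7a interaction was between -2.48 and -2.33 and missed the threshold, as it did with the replicate number as a block (-2.64). Marco, another scavenger receptor, was at 0.138 to 3.405 CPM in Vehicle and at 0 to 0.691 CPM in Combo, where 2 of 5 tumors had no count. It overlapped Vehicle in every group and was called lower in SHP2i (log2 fold change -4.27, SE 1.29, adjusted p = 0.0406) and in Combo (log2 fold change -3.11, SE 1.05, adjusted p = 0.0237). These calls rested on few reads: the SHP2i call was lost without any 1 of 7 Vehicle or SHP2i tumors (-5.48 without SHP2i replicate 2) and the Combo call without Vehicle replicate 4 or Combo replicate 2 or 5, and without Combo replicate 4 the Combo value was -4.99.

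The resident-like genes moved in different directions. Siglec1 (sialoadhesin, CD169) and Vsig4 (a complement receptor of tissue macrophages) fell in Combo, as did Lyve1, a hyaluronan receptor that lymphatic vessels share (log2 fold change -0.89, SE 0.296, adjusted p = 0.0219), while Cd163 rose. Siglec1 was at 50.3, 51.7, 58.3, 64.9 and 70.7 CPM in Vehicle, 41.7, 102, 79.9 and 45.5 in PI3Ki, 14.9, 15.6, 38.1 and 23.1 in SHP2i, and 6.17, 15.7, 16.03, 5.48 and 3.81 in Combo. It fell 2.58-fold in SHP2i (log2 fold change -1.37, SE 0.397, adjusted p = 0.0338). In Combo it fell 6.25-fold (log2 fold change -2.64, SE 0.39, adjusted p = 5.37e-05), and the SHP2i call was lost without any 1 of 7 Vehicle or SHP2i tumors, as was the Lyve1 call without Combo replicate 1 or 5. Vsig4 was at 0.785, 0.939, 2.09, 0.738 and 1.66 CPM in Vehicle, 0.559, 3.401, 0.492 and 0.611 in PI3Ki, 1.09, 0.502, 0.958 and 0.492 in SHP2i, and 0.219, 0.0447, 0.0408, 0.173 and 0.0886 in Combo. All Combo tumors, with 1 to 5 counts each, lay below every other tumor, and the other 3 groups overlapped. The Combo change of Vsig4 was called lower (log2 fold change -3.40, SE 0.655, adjusted p = 0.000568).

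Cd163, the scavenger receptor for haemoglobin bound to haptoglobin, was at 67.4, 46.8, 68.98, 55.6 and 41 CPM in Vehicle, 99.5, 260.1, 224 and 202 in PI3Ki, 59.9, 110.4, 259 and 152 in SHP2i, and 122, 748, 681, 149 and 137 in Combo. All PI3Ki and all Combo tumors were above the highest Vehicle value, and Combo replicates 2 and 3 stood above the other 3 Combo tumors. Its level rose 6.57-fold in Combo (log2 fold change 2.72, SE 0.529, adjusted p = 0.000617), with 1.81 in PI3Ki (adjusted p = 0.0585) and 1.38 in SHP2i (adjusted p = 0.0967) on the log2 scale. The PI3Ki value passed the threshold when Combo replicate 1, 2, 3 or 5 was left out of the fit (adjusted p = 0.0436, 0.0443, 0.0478 and 0.043). Mrc1, the mannose receptor CD206, showed the same 2 Combo tumors apart and was at 192, 174, 206, 153 and 164 CPM in Vehicle, 218, 601, 388 and 397 in PI3Ki, 139, 179, 491 and 276 in SHP2i, and 196, 586, 578, 133 and 138 in Combo. None of the 3 Mrc1 changes passed the test (1.17 in PI3Ki with adjusted p = 0.153, 0.61 in SHP2i with 0.386, and 0.88 in Combo with 0.108). Without Combo replicate 4 the Combo value of Mrc1 did (1.08, adjusted p = 0.0491). With only the groups compared the PI3Ki value did (1.17, adjusted p = 0.0166), and every PI3Ki tumor was above every Vehicle tumor. Folr2, the folate receptor beta, likewise ranged over 5.10 to 32.5 CPM in Combo with its 2 highest values in replicates 2 and 3. The 8 fibroblast genes summed to 4655 and 5109 CPM in Combo replicates 2 and 3 and to 2200, 2268 and 2959 in the other 3, and their part in these values was not tested. Skeletal muscle genes summed to 908 to 2175 CPM in the PI3Ki tumors, and the part of muscle tissue in the PI3Ki values of Cd163 and Mrc1 was not tested.

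**Figure D2:**
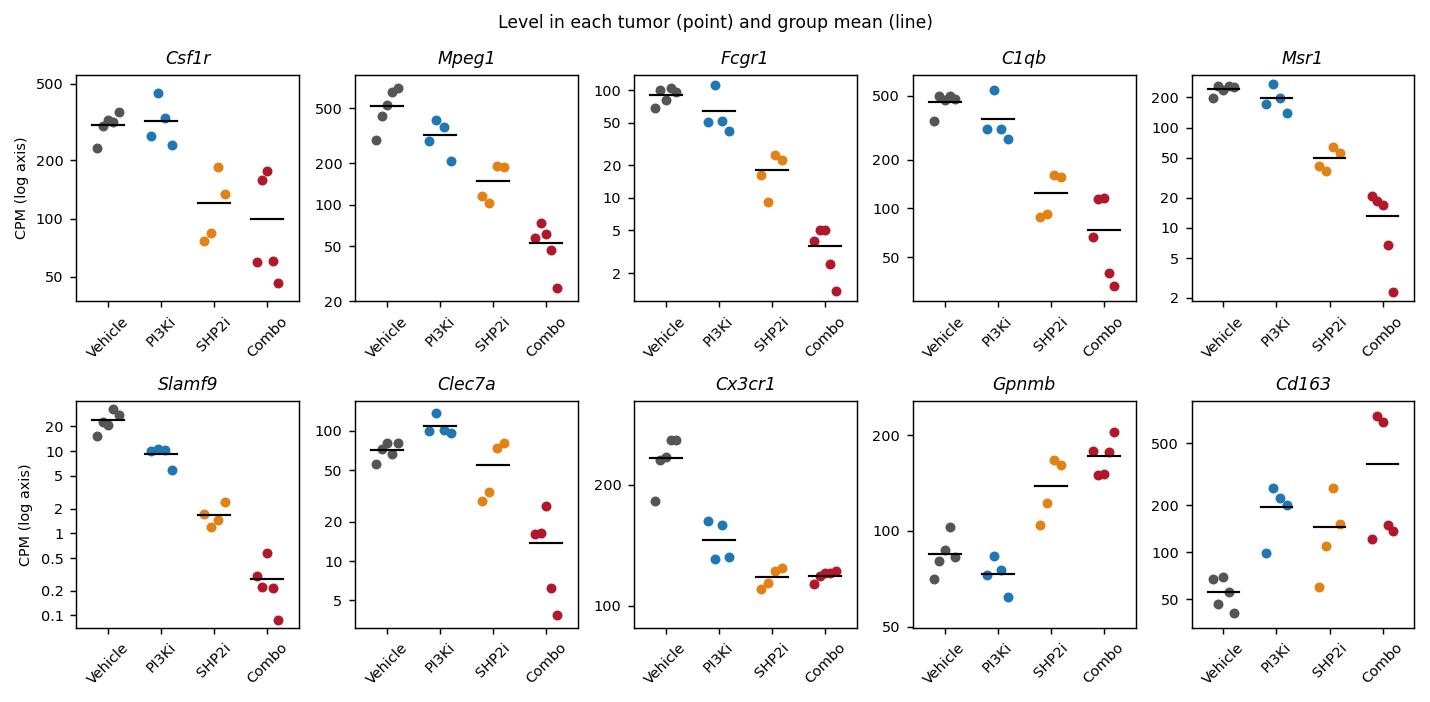
CPM of 10 of the genes in each tumor (points, log axis) and the mean of each group (lines). Fcgr1, Msr1 and Slamf9 step down from Vehicle to Combo, Clec7a is highest in PI3Ki, Cx3cr1 is nearly constant over the SHP2i and Combo tumors at 110 to 124 CPM, Gpnmb steps up in SHP2i and Combo, and Cd163 is above the Vehicle range in every PI3Ki and Combo tumor.

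Of the 4 lipid-associated genes, Gpnmb rose in SHP2i and Combo, Spp1 fell in both, and Trem2 and Apoe fell in Combo. Gpnmb, a transmembrane glycoprotein of lysosome-rich macrophages that carcinoma cells can also make, was at 70.7, 80.2, 87.4, 103 and 82.9 CPM in Vehicle, 72.7, 83.6, 75.5 and 61.99 in PI3Ki, 104, 122, 167 and 161 in SHP2i, and 178, 149.8, 151, 177 and 205 in Combo. Every SHP2i and every Combo tumor was above every Vehicle and PI3Ki tumor. Its level rose 1.63-fold in SHP2i (log2 fold change 0.71, SE 0.141, adjusted p = 0.00408) and 2.03-fold in Combo (log2 fold change 1.02, SE 0.135, adjusted p = 1.95e-05). Gpnmb was highest in Combo replicate 5 (205 CPM), the tumor that was the lowest of its group for 29 of the 38 genes. Its SD over the Combo tumors was 0.189 on the log2 scale, where the median over the 38 genes was 0.849. Which cells made the Gpnmb RNA was not tested.

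Spp1, the secreted phosphoprotein osteopontin, was at 1858, 1966, 1759, 1567 and 1912 CPM in Vehicle, 2957, 1942, 2148 and 1877 in PI3Ki, 1277, 986, 1196 and 1402 in SHP2i, and 1142, 791, 653, 1088 and 1012 in Combo. All SHP2i and Combo tumors were below all Vehicle tumors, with a fall of 1.49-fold in SHP2i (log2 fold change -0.58, SE 0.166, adjusted p = 0.0328). The Combo fall was 1.93-fold (log2 fold change -0.95, SE 0.157, adjusted p = 0.000144). Within Combo, Spp1 was lowest in replicates 2 and 3 (791 and 653 CPM), where Csf1r was highest (158 and 176 CPM). Which cells made the Spp1 RNA was not tested. The SHP2i call of Spp1 was lost without any 1 of 7 Vehicle or SHP2i tumors (log2 fold changes between -0.614 and -0.492). Trem2, a lipid-sensing receptor that signals through Tyrobp, was at 29.6, 36.1, 34.5, 28.3 and 27.7 CPM in Vehicle, 24.95, 61.2, 27.9 and 28.4 in PI3Ki, 11.7, 13.1, 23.9 and 18.4 in SHP2i, and 9.58, 17.3, 25.9, 6.996 and 5.403 in Combo. Both treated groups lay below Vehicle, but the SHP2i value of -0.90 did not pass the test (adjusted p = 0.13), while Trem2 fell in Combo (log2 fold change -1.26, SE 0.36, adjusted p = 0.00934). The SHP2i value of Trem2 passed with limma voom (adjusted p = 0.0111) and in edgeR with only the groups compared (adjusted p = 0.00769). Apoe, the lipid carrier apolipoprotein E, fell in Combo (log2 fold change -0.95, SE 0.309, adjusted p = 0.0192), a call lost without Combo replicate 1 (-0.842), and had -0.97 in SHP2i (adjusted p = 0.0656).

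Among the 3 monocyte genes and chemokine receptors all fell in Combo and Cx3cr1 and Ccr1 fell in SHP2i. Cx3cr1, the fractalkine receptor of patrolling monocytes and many tissue macrophages, was at 182, 231, 235, 258 and 258 CPM in Vehicle, 163, 130.3, 159 and 132 in PI3Ki, 110.2, 114, 122 and 124 in SHP2i, and 113, 118, 121, 120.5 and 122 in Combo. Vehicle tumors were above all treated tumors, and SHP2i and Combo tumors covered the same narrow range. Cx3cr1 fell 1.59-fold in PI3Ki (log2 fold change -0.67, SE 0.0954, adjusted p = 0.000332), 1.98-fold in SHP2i (log2 fold change -0.99, SE 0.0963, adjusted p = 1.05e-05) and 1.96-fold in Combo (log2 fold change -0.97, SE 0.0896, adjusted p = 6.24e-07). With both single effects past the threshold and the Combo value no lower than the SHP2i value, the interaction was 0.69 (SE 0.134, adjusted p = 0.0147). The 5 Combo tumors had an SD of 0.0426 on the log2 scale for Cx3cr1, the smallest of the 38 genes in that group, where the median SD was 0.849. Csf1r ranged over 46.6 to 176 CPM in the same tumors. PI3Ki replicate 2, the highest of its group for 35 of the 38 genes, was the lowest for Cx3cr1 at 130.3 CPM. Cx3cr1 thus did not vary between tumors as most of the 38 genes did, and which cells made its RNA was not tested.

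Ccr1, a receptor for CCL3 and CCL5 on monocytes and neutrophils, was at 77, 101, 93.4, 86.7 and 83.6 CPM in Vehicle, 73.9, 129.6, 65.4 and 66.3 in PI3Ki, 20.8, 19.3, 43.6 and 32.1 in SHP2i, and 14.4, 25.9, 30.2, 11.7 and 6.64 in Combo. It fell 3.05-fold in SHP2i (log2 fold change -1.61, SE 0.355, adjusted p = 0.00768). Combo gave a 4.96-fold fall (log2 fold change -2.31, SE 0.339, adjusted p = 5.12e-05), with no overlap with Vehicle in either group. Ly6c2, which marks classical monocytes and differs little in sequence from Ly6c1, was at 23.6, 27.7, 19.9, 20.9 and 17.2 CPM in Vehicle, 12.7, 53.04, 31.01 and 25.3 in PI3Ki, 8.97, 10.5, 19.7 and 15.8 in SHP2i, and 8.71, 11.8, 22.2, 5.36 and 4.25 in Combo. Combo overlapped Vehicle through replicate 3. The Combo call (log2 fold change -1.06, SE 0.401, adjusted p = 0.0402) was lost without any 1 of 8 tumors, namely Vehicle replicates 1 to 4 and Combo replicates 1, 2, 4 and 5 (between -1.11 and -0.864).

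Slamf9, a receptor of the SLAM family on macrophages and dendritic cells, had the largest log2 fold change of the 38 genes in Combo. Its level was 15.3, 22.8, 20.5, 32.7 and 27.2 CPM in Vehicle, 9.902, 10.5, 10.2 and 5.87 in PI3Ki, 1.73, 1.19, 1.46 and 2.37 in SHP2i, and 0.306, 0.224, 0.571, 0.216 and 0.0886 in Combo. The 4 groups did not overlap one another, and the Combo values rested on 2 to 14 counts per tumor. Its falls were 2.59-fold in PI3Ki (log2 fold change -1.38, SE 0.28, adjusted p = 0.0076), 14-fold in SHP2i (log2 fold change -3.81, SE 0.322, adjusted p = 3.68e-06) and 81.9-fold in Combo (log2 fold change -6.36, SE 0.354, adjusted p = 8.02e-09). With Cx3cr1 it was 1 of the 2 genes lower in PI3Ki, and the interaction of -1.17 did not pass the test (adjusted p = 0.18). Siglech, a gene of the dendritic cell list, was named after its values were seen. Its log2 fold changes were -0.76 in PI3Ki (adjusted p = 0.374) and -3.01 in SHP2i (adjusted p = 0.00117). Between Combo and SHP2i it differed by -4.55 (adjusted p = 0.00121). The 12 dendritic cell genes ranged from -7.56 to 0.79 in Combo, and the part of dendritic cells in the Slamf9 values was not tested.

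Ms4a6c, a 4-span membrane protein of monocytes, was at 92.2, 121, 114, 139.8 and 116 CPM in Vehicle, 71.99, 184, 86.6 and 72.2 in PI3Ki, 28, 22.4, 46.9 and 39.97 in SHP2i, and 18.6, 38.5, 38.2, 17.4 and 8.72 in Combo. It fell 3.4-fold in SHP2i (log2 fold change -1.76, SE 0.381, adjusted p = 0.00669). In Combo it fell 4.8-fold (log2 fold change -2.26, SE 0.36, adjusted p = 0.000106), with both groups below all Vehicle tumors. Cd84, a SLAM-family receptor found on most leukocytes, was at 54.5, 58.4, 68.02, 64.1 and 64.8 CPM in Vehicle, 50.1, 102, 68.7 and 68.4 in PI3Ki, 55.2, 51.5, 81.02 and 61.01 in SHP2i, and 29.98, 46.5, 53.1, 30.4 and 18.2 in Combo. Its log2 fold change in SHP2i was 0.0049 (adjusted p = 0.991), and it fell in Combo (log2 fold change -0.80, SE 0.232, adjusted p = 0.0106). The related Ms4a7 fell in Combo (log2 fold change -1.37, SE 0.499, adjusted p = 0.0345), a call lost without any 1 of 7 tumors (between -1.36 and -1.13).

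Adding the PI3K inhibitor to the SHP2 inhibitor was tested by comparing Combo with SHP2i. Lower calls were made for 12 of 38 genes and higher calls for none (also none with DESeq2 or limma voom), where 10.3% and 11.8% of all tested genes were called, and 21 of the 38 had an unadjusted p under 0.05 (36.2% of all tested genes). Over 1 on the log2 scale, 10 were lower and 0 higher (3.13% and 1.44%). The 12 were Aif1, Mpeg1, Fcgr1, Fcgr4, Tyrobp, Clec7a, Msr1, Lyve1, Vsig4, Siglec1, Cd84 and Slamf9, and for 7 of the 38 every Combo tumor was below every SHP2i tumor (7.26% of all tested genes). Leaving out 1 tumor at a time removed the call of Fcgr4 in 7 of 18 fits, of Lyve1 in 6, and of Siglec1, Cd84 and Tyrobp in 5 each. The calls of Fcgr4, Lyve1 and Siglec1 were also lost with the replicate number as a block. The falls of Slamf9 (5.84-fold, adjusted p = 0.000242) and Fcgr1 (5.06-fold, adjusted p = 0.000432) had the smallest p. The median log2 difference over the 38 genes was -0.65. The count fell to 7 without Combo replicate 5, SHP2i replicate 4 or SHP2i replicate 5, and to 8 without Combo replicate 1 or 4, and rose to 17 without Combo replicate 3. It was 7 when only the 9 tumors compared entered the fit. In the same comparison 4 of 12 neutrophil and 4 of 12 dendritic cell genes were also lower, with 0 higher in either list. Of the 8 fibroblast genes 4 were lower and 2 higher, and of the 8 leukocyte-wide genes 0 were called. The part of other cells in the differences between Combo and SHP2i was not tested.

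Adding the SHP2 inhibitor to the PI3K inhibitor, Combo against PI3Ki, gave 31 genes lower and 1 higher of 38, where 17.8% and 19.9% of all tested genes were called. The 1 higher gene was Gpnmb (log2 fold change 1.23, SE 0.146, adjusted p = 1.11e-05), and over 1 on the log2 scale there were 30 lower and 1 higher (8.36% and 2.74%). At an unadjusted p under 0.05, 35 of the 38 differed (46.7% of all tested genes). The 6 genes without a call were Maf, Marco, Mrc1, Cd163, Folr2 and Ms4a7. Without PI3Ki replicate 2 the calls of Cd68 (-1.06) and Lyve1 (-0.79) were lost and Vsig4 moved from -3.42 to -2.27, and without PI3Ki replicate 1 or 3 the call of Cx3cr1 was lost (between -0.253 and -0.241). Every Combo tumor was below every PI3Ki tumor for 27 of the 38 and above for 1 (11.2% and 13.2% of all tested genes).

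The spread between tumors of 1 group was not the same in the 4 groups. The SD of log2 CPM had a median over the 38 genes of 0.219 in Vehicle, 0.488 in PI3Ki, 0.51 in SHP2i and 0.849 in Combo, where all tested genes had 0.157, 0.208, 0.179 and 0.221. The same tumors stood out in many genes. PI3Ki replicate 2 was the highest of its group for 35 of 38 genes, SHP2i replicate 4 for 28 and Combo replicate 3 for 22, while Combo replicate 5 was the lowest of its group for 29 and Vehicle replicate 1 for 27. As the mean over the 38 genes of log2 CPM less the Vehicle mean, Vehicle tumors were between -0.307 and 0.15, PI3Ki between -0.42 and 0.602, SHP2i between -1.65 and -0.771 and Combo between -3.0 and -1.35.

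**Figure D3:**
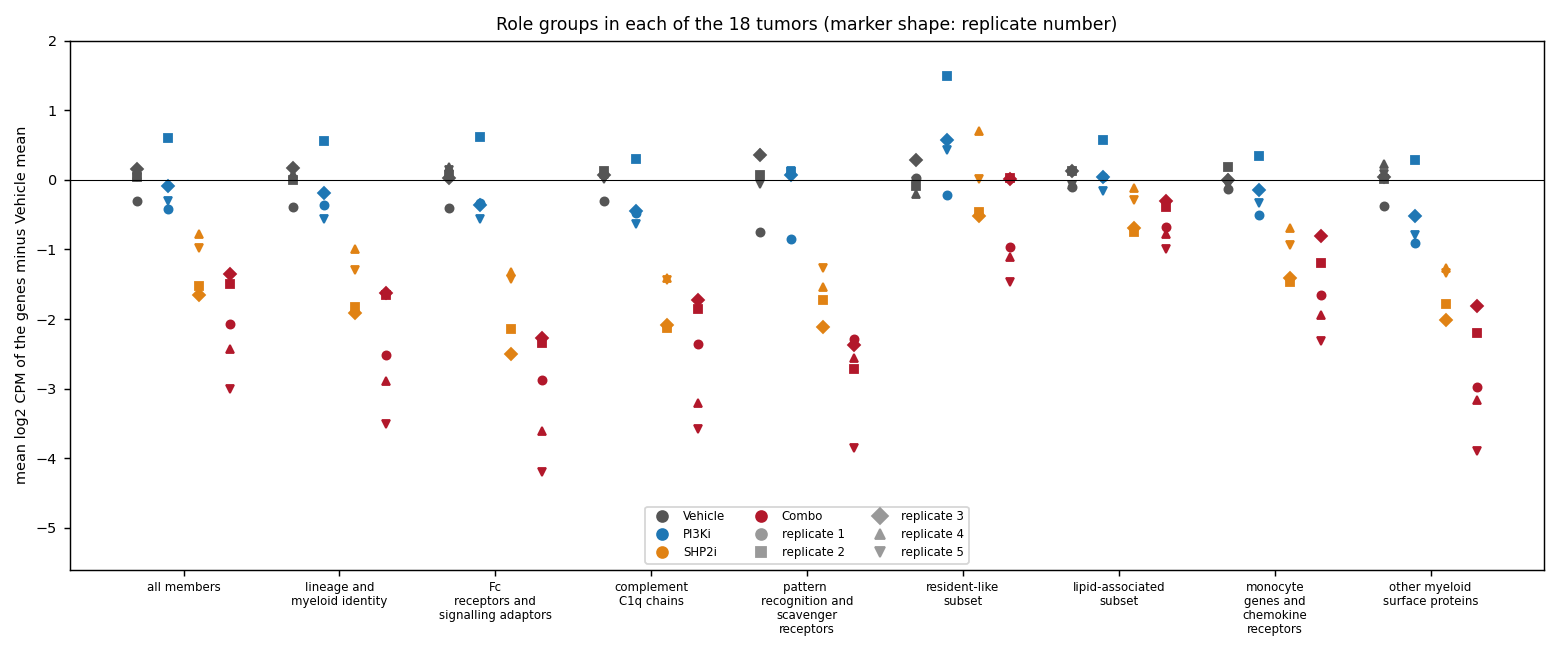
Mean over the genes of each role of log2 CPM less the Vehicle mean, 1 point for each of the 18 tumors, with the shape giving the replicate number. PI3Ki replicate 2 (blue square) is the highest PI3Ki point in every role but pattern recognition, Combo replicate 5 (red, pointing down) is the lowest, and the resident-like genes are the role in which the Combo tumors reach the Vehicle range.

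Among the remaining lists of markers of other cells in Combo against Vehicle, 8 of 12 dendritic cell genes were lower and 1 higher, 6 of 12 T and natural killer cell genes were lower, 1 of 10 B and plasma cell genes was lower, and 2 of 6 osteoclast-like genes were lower. Of 8 fibroblast genes 3 were lower and 2 higher, of 8 epithelial genes 1 was lower, of 5 tested lymphatic genes 1 was lower and 1 higher, and of 12 muscle genes 1 was lower. Against 19.7% of all tested genes lower and 23.9% higher, the fibroblast, epithelial, lymphatic, muscle and B cell counts are too small or too near these shares to be read as results about those cells. The part of these cells in the values of the 38 genes was not tested. Without Combo replicates 3 and 4 the Combo calls were 33 lower and 2 higher, and without PI3Ki replicate 2 the PI3Ki calls were 2 lower and 0 higher with a median log2 fold change of -0.317.

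Relative to Csf1r within each tumor, the 37 other genes did not keep their proportions. The ratio of CPM to Csf1r CPM was lower in every Combo tumor than in every Vehicle tumor for 14 of 37 genes, where 0.942% of all tested genes were, and higher for 7 of 37, where 69.7% of all tested genes were. Csf1r itself fell from a mean of 305 CPM in Vehicle to 100 in Combo, so a gene that did not change had a higher ratio. The shares of all tested genes therefore reflect the divisor and are no baseline for genes of leukocytes. For Slamf9 the mean ratio was 0.0772 in Vehicle and 0.00306 in Combo, for Fcgr1 0.296 and 0.0396, for Msr1 0.799 and 0.144, and for Aif1 0.227 and 0.0561. Cd68 (0.379 and 0.404), Sirpa (0.651 and 0.577) and Trem2 (0.105 and 0.13) overlapped between the groups. The 7 genes with a higher ratio were Maf, Fcgr3, Mrc1, Cd163, Apoe, Gpnmb and Cd84, with Cd163 at 0.191 in Vehicle, 0.616 in PI3Ki, 1.16 in SHP2i and 3.22 in Combo. Mrc1 followed the same order at 0.599, 1.24, 2.16 and 3.09.

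**Figure D4:**
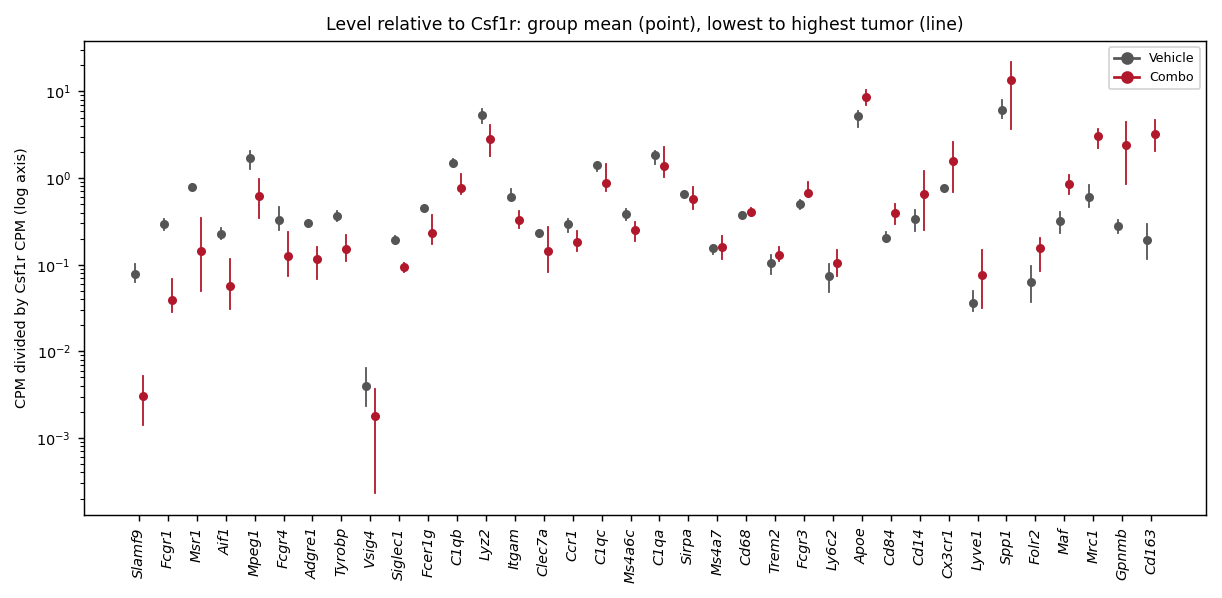
CPM divided by the Csf1r CPM of the same tumor (log axis) for 36 genes, as the mean and the lowest to highest tumor in Vehicle and Combo, sorted by the Combo to Vehicle quotient. Marco, with no count in 2 Combo tumors, is left out. Slamf9, Fcgr1 and Msr1 at the left are lower in Combo, and Mrc1, Gpnmb and Cd163 at the right are higher.

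Genes that supply or instruct macrophages, carry their signals or are made by them on activation form 4 further lists. Their counts stand against 19.7% of all tested genes lower and 23.9% higher in Combo, 6.54% and 5.05% in SHP2i, and 2.42% and 2.69% in PI3Ki. Of 7 tested genes for growth factors and recruitment, 3 fell and 1 rose in Combo and 2 fell in SHP2i, so the share that rose was below that of all tested genes. Ccr2, the receptor that draws classical monocytes from blood, was at 91.1, 145, 160.0, 163 and 142 CPM in Vehicle, 154, 233, 161 and 111 in PI3Ki, 25.5, 11.8, 39.1 and 28.3 in SHP2i, and 7.397, 14.8, 15.3, 4.62 and 1.46 in Combo. No SHP2i or Combo tumor reached the Vehicle range, and Ccr2 fell 5.35-fold in SHP2i (log2 fold change -2.42, SE 0.462, adjusted p = 0.00307). The Combo fall was 16-fold (log2 fold change -4.002, SE 0.462, adjusted p = 5.44e-06). Csf2ra, a chain of the GM-CSF receptor, fell in SHP2i (adjusted p = 0.0497) and in Combo (log2 fold change -2.42, SE 0.381, adjusted p = 9.96e-05), and Il34, which encodes the second ligand of CSF1R, rose (log2 fold change 0.78, SE 0.157, adjusted p = 0.000792). The first ligand gene, Csf1, outside the rule for naming genes, had a log2 fold change of 0.08 in Combo (adjusted p = 0.625) at 253 to 314 CPM in Vehicle and 249 to 355 in Combo.

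Of 9 myeloid transcription factors, 3 fell and 2 rose in Combo and 3 fell in SHP2i, with the share that rose in Combo close to that of all tested genes. Spi1, which encodes PU.1, was at 67.03, 95.1, 87.1, 84.6 and 83.7 CPM in Vehicle, 61.4, 135, 61.5 and 57.5 in PI3Ki, 19.6, 20.7, 44.5 and 32.2 in SHP2i, and 11.8, 23.7, 28.2, 11.5 and 6.69 in Combo. It fell 2.86-fold in SHP2i (log2 fold change -1.51, SE 0.368, adjusted p = 0.0139). Combo gave a 5.09-fold fall (log2 fold change -2.35, SE 0.353, adjusted p = 6.51e-05), with both groups below all Vehicle tumors. The interferon regulatory factors Irf8 (log2 fold change -1.81, SE 0.23, adjusted p = 1.34e-05) and Irf5 (log2 fold change -1.16, SE 0.11, adjusted p = 8.51e-07) also fell, while Runx1 (log2 fold change 0.74, SE 0.124, adjusted p = 0.000174) and Klf4 (log2 fold change 0.82, SE 0.242, adjusted p = 0.0117), which epithelial and stromal cells also express, rose.

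Of 11 kinases and phosphatases below the receptors, 9 fell and 1 rose in Combo, and 8 fell in SHP2i. Lyn, a kinase that signals below many leukocyte receptors, was at 122 to 182 CPM in Vehicle and 28.1 to 39.99 in Combo, where it fell (log2 fold change -2.24, SE 0.143, adjusted p = 2.05e-08). Ptpn6, which encodes the phosphatase SHP1 of blood cells, fell as well (log2 fold change -1.57, SE 0.143, adjusted p = 5.21e-07). Ptpn11, which encodes SHP2 itself and is expressed in most cells, rose by 0.21 on the log2 scale (SE 0.0838, adjusted p = 0.0478) from 139.6 to 173 CPM in Vehicle to 173 to 207 in Combo, with overlap.

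Of 14 macrophage activation products, 6 fell and 1 rose in Combo, 4 fell and 1 rose in SHP2i, and 1 fell and 2 rose in PI3Ki, with the share that rose in Combo below that of all tested genes. Il1b was at 91.2, 93.3, 112, 94.6 and 70.1 CPM in Vehicle, 108, 99.5, 50.8 and 84.7 in PI3Ki, 31.1, 21.3, 59.1 and 47.5 in SHP2i, and 9.54, 12.3, 8.53, 5.14 and 2.97 in Combo. It fell 2.32-fold in SHP2i (log2 fold change -1.21, SE 0.332, adjusted p = 0.0251). The Combo fall was 12-fold (log2 fold change -3.58, SE 0.343, adjusted p = 9e-07), with an interaction of -2.27 (adjusted p = 0.0173). Tnf, at 2.35 to 4.01 CPM in Vehicle and 0.0443 to 0.5303 in Combo, fell in all 3 treated groups (log2 fold changes -1.65, -2.02 and -3.66), and the costimulatory ligand Cd86 fell in SHP2i (-1.33) and Combo (log2 fold change -2.29, SE 0.317, adjusted p = 3.06e-05). Chil3, the chitinase-like protein Ym1 of alternatively activated macrophages and neutrophils, rose in all 3 (4.23, 3.601 and 5.46) from 0.174 to 1.71 CPM in Vehicle to 10.6 to 81.2 in Combo, with wide spread between tumors. In PI3Ki (SE 1.04, adjusted p = 0.0243) and SHP2i (SE 1.03, adjusted p = 0.0319) the range of Chil3 overlapped that of Vehicle.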

How the data were processed

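RNA of frozen tumors was extracted with RNeasy columns, and directional poly(A) libraries were sequenced as paired ends. After adapter trimming with cutadapt, the authors mapped the reads to GRCm38 (STAR, two-pass mode). They deposited, for each tumor, counts of reads per gene made with qCount of QuasR. The submitters' processing notes name STAR, GRCm38 and hg19. Versions, the gene annotation, the strand setting and the treatment of read pairs and of reads that fit several genes are not given in the sources used here.

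Depth was 21161111 to 26620104 counts per tumor. Gene IDs were matched to symbols for 22760 of 22792 IDs, and the 32 without a symbol held 0.0193% of counts. Genes passed edgeR's filter with a minimum count of 10 and a minimum total of 15 (15282 genes). All 18 tumors entered 1 quasi-likelihood fit (edgeR 4.0.16 in R 4.3.3, TMM scaling, common biological coefficient of variation 0.2125) with group means, from which each comparison and the interaction (Combo less SHP2i less PI3Ki plus Vehicle) were taken. Log2 CPM values used a prior count of 2, and log2 fold changes were taken from the fit at edgeR's default setting. The p-values were adjusted by Benjamini-Hochberg over all tested genes, and calls were made at 0.05. Replicates within each group were compared and none was a copy of another. The scripts were tested on simulated data. Alternatives were DESeq2 1.42.0, limma 3.58.1 (voom with quality weights), 2 scalings, 2 filters, the replicate number as a block, only the groups compared, and leaving out tumors.

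The 38 genes, the role groups and the marker and pathway lists were chosen with earlier results of these data known. Every tumor's value is given for up to 3 genes of each role with the smallest p in Combo against Vehicle and for genes called higher or in the interaction. In the pathway lists up to 3 genes with the smallest p and any gene called higher in Combo were named. A result for 1 gene of these lists is not reported here. Mrc1, Siglech and the ranges of other genes were chosen after their values were seen.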

Additional observations from a re-analysis of the deposited data

Results flagged for a closer look

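Among 152 groups of 4 or 5 tumors, 1 for each gene and treatment, 20 held a tumor set apart from the others of its group by Dixon's test at the 95% level, which chance alone does for about 1 group in 20. The 152 groups are not independent, since all genes were measured in the same tumors and many varied together, so the count of 20 cannot be set against that rate. Of the 20, 14 were high values in PI3Ki replicate 2, 4 were low values in Vehicle replicate 1, and the others were Marco in Combo replicate 4 and Slamf9 in PI3Ki replicate 5.

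In PI3Ki replicate 2 the lysosomal gene Cd68 was at 165 CPM and Sirpa at 296, where the other PI3Ki tumors were at 77.3 to 91.7 and 158 to 171. The Fc receptor genes Fcgr1 (111), Fcgr3 (317), Tyrobp (174) and Fcer1g (201 CPM) were high as well, as were the C1q chains C1qa (764) and C1qb (540.4). Clec7a was at 136 CPM, Vsig4 at 3.40, Trem2 at 61.2, Apoe at 3573, Ccr1 at 129.6 and Ms4a6c at 184. The neutrophil genes summed to 2145 CPM and the fibroblast genes to 14950 CPM in this tumor, and their part in these values was not tested.

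Vehicle replicate 1 was low for Fcgr3 (130.1 CPM against 152 to 159 in the other Vehicle tumors), Fcer1g (107), C1qb (346) and C1qc (346). Marco was at 0.691 CPM in Combo replicate 4 against at most 0.131 in the other Combo tumors, and Slamf9 was at 5.87 CPM in PI3Ki replicate 5 against 9.90 to 10.5.

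The effect of the PI3K inhibitor was called different with and without the SHP2 inhibitor for 2 of the 38 genes in edgeR's quasi-likelihood test of the interaction. The interaction was below 0 for 35 of the 38, with a median of -0.716 against 0.0226 over all tested genes. For Clec7a the interaction was -2.59 on the log2 scale, since PI3Ki tumors were above Vehicle and Combo tumors below SHP2i. This call was lost with the replicate number as a block (-2.64) and without PI3Ki replicate 2, SHP2i replicate 4 or SHP2i replicate 5 (between -2.48 and -2.33). For Cx3cr1 it was 0.689, since PI3Ki tumors were below Vehicle and Combo tumors covered the range of SHP2i.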

How the results depend on the processing

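No call among the 38 genes changed direction under any alternative, and over all genes called and all alternatives 2758 values kept their call and 102 lost it. In PI3Ki the 2 lower genes became 1 with a log2 fold change over 1 required and 4 with limma voom, and the 0 higher genes became 1 with DESeq2, 1 with voom, 1 without both Combo replicates 3 and 4, and 3 with only the groups compared. In SHP2i the 1 higher gene became 0 with the log2 limit and 2 with voom or only the groups compared. Apoe, Fcgr3, Sirpa and Trem2 were also called lower in SHP2i with voom and with only the groups compared. Apoe and Fcgr3 were called lower with DESeq2 as well, and Ly6c2 and Ms4a7 with only the groups compared. Combo against SHP2i gave 7 lower genes with only the groups compared. In the interaction the 1 lower gene became 2 with DESeq2 and 3 with voom, and the 1 higher gene became 0 with the log2 limit. The cause was not tested.

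Leaving out 1 tumor at a time gave 2 to 2 lower and 0 to 1 higher genes in PI3Ki, 17 to 24 and 1 to 1 in SHP2i, 29 to 33 and 2 to 3 in Combo, 7 to 17 and 0 to 1 in Combo against SHP2i, 29 to 34 and 1 to 1 in Combo against PI3Ki, and 0 to 3 and 1 to 1 in the interaction. Medians ranged from -0.317 to 0.0677 in PI3Ki, from -1.5 to -1.08 in SHP2i and from -2.42 to -1.99 in Combo.

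Replicate numbers are shared between groups, but they did not pair the tumors: over 24 pairs with the same number the deviations had a median correlation of 0.0178, 8 of 24 were over 0.1, and 4 of 18 tumors correlated best with their own number. With the replicate number as a block the lower gene in the interaction (Clec7a) was lost, leaving 0, Combo against SHP2i lost 3 of its 12 calls, and no other call was lost. Genes with few counts, such as Marco and Vsig4, limit what these depths can show.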
